A study of Mus musculus with 12 samples.

Results

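Potassium channel subunits were taken as the protein-coding genes whose symbol is Kcn followed by letters and a number. Of the 45906 genes in the table, 92 symbols matched, and 91 were kept, since Kcnab2 lies near the targeted gene Plekhg5 and was left out. The RNA came from the whole spinal cord of 12 C57BL/6 mice aged 7 months, with 3 mice in each of 4 genotypes. Plekhg5+/+ mice carried intact Plekhg5, an activator of Rab GTPases, and no transgene. Plekhg5-/- mice were deficient for Plekhg5 and carried no transgene. Plekhg5+/+ SOD1-G93A mice carried intact Plekhg5 and a low-copy transgene of human SOD1 with the ALS mutation G93A, which the promoter of human SOD1 drives in many cell types and not in motoneurons alone. Plekhg5-/- SOD1-G93A mice combined both alleles. The comparisons ask how the mutant SOD1 transgene and the loss of Plekhg5, alone and together, alter the transcripts of these channels.

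Potassium channels let potassium leave the cell, which repolarizes the membrane after an action potential and sets the resting potential. In the spinal cord, voltage-gated Kv channels shape firing and guard the axon beside the node of Ranvier, two-pore channels carry leak currents, and inward rectifiers of astrocytes take up the potassium that active neurons release. Silent Kv subunits form no channel alone and modify Kv2 channels, and auxiliary subunits bind Kv1 or Kv4 channels or the slow Kv7 channels. By these roles, the 91 subunits were divided into 30 Kv subunits, 10 silent Kv subunits, 10 auxiliary subunits, 12 subunits of calcium- or sodium-activated channels, 15 inward rectifiers and 14 two-pore subunits.

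Libraries held 30415643 to 38743628 counts, of which 0.557% to 0.709% lay in the 91 subunits. After the filter on low counts, 80 of them were tested. The other 11 had at most 7 counts in any library. With the knockout, Plekhg5 transcripts fell by 2.53 on the log2 scale without the transgene and fell by 2.4 with it (edgeR adjusted p = 5.39e-06 and 9.06e-06), and human SOD1 was found at 4421 to 5638 CPM (counts scaled to the normalized size of the library) in the transgenic mice and at 0.153 to 5.47 CPM in the others. Markers of neurons, motoneurons, astrocytes, oligodendrocytes and microglia had counts in every library. Schwann cell markers summed to 52.7 to 365 CPM and varied within and between genotypes, and 3, 2, 2 and 1 of the 3 mice, in the order of genotypes above, had Y-linked transcripts. The labels do not name litters or preparation days.

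In Plekhg5+/+ spinal cord, transcripts of potassium channels were spread unevenly over the 91 subunits. Levels of different genes were compared as CPM per kilobase of exon. Kcnj10, the inward rectifier Kir4.1 of astrocytes and oligodendrocytes, stood highest with 149.8 ± 15 CPM per kilobase (SD, n = 3), which is 16.6% of the sum over all subunits. Kcna1 (Kv1.1), a subunit of axons, had 80.5 ± 11.4 CPM per kilobase. Its Kv1 partners were lower, with Kcnab3 at 45.6 ± 2.24, Kcna2 (Kv1.2) at 45.2 ± 11.2 and Kcnab1 at 43.3 ± 2.36 CPM per kilobase, closer to each other than the SD of Kcna2. Kcnc1 (Kv3.1) and Kcnk1 (TWIK-1) had 30.8 CPM per kilobase each, and Kcng4 and Kcnh2 had 28.6 and 27.1 CPM per kilobase. The 10 highest subunits held 63.1% of the summed level.

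By class, Kv subunits made up 44.9% of the summed level in Plekhg5+/+ mice, inward rectifiers 23.8%, auxiliary subunits 12.3%, two-pore subunits 8.82%, calcium- or sodium-activated subunits 5.09% and silent Kv subunits 5.0%. At least 1 CPM per kilobase was reached by 61 of the 91 subunits and at least 10 by 20. Of the 20, 10 were Kv subunits. Single genes led most of the smaller classes. Kcng4 was the silent subunit with 28.6 CPM per kilobase, against 7.74 for Kcns3 and 1.81 for Kcns1. Kcnt1, a sodium-activated channel, had 18.7 CPM per kilobase, and the calcium-activated Kcnn2 (SK2) and Kcnma1 (BK) had 8.46 and 7.89. At the low end, 3 subunits, Kcne1, Kcnk18 and Kcnmb3, had no count in the 3 Plekhg5+/+ libraries. The plot of levels by class shows this range.

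**Figure D1:**
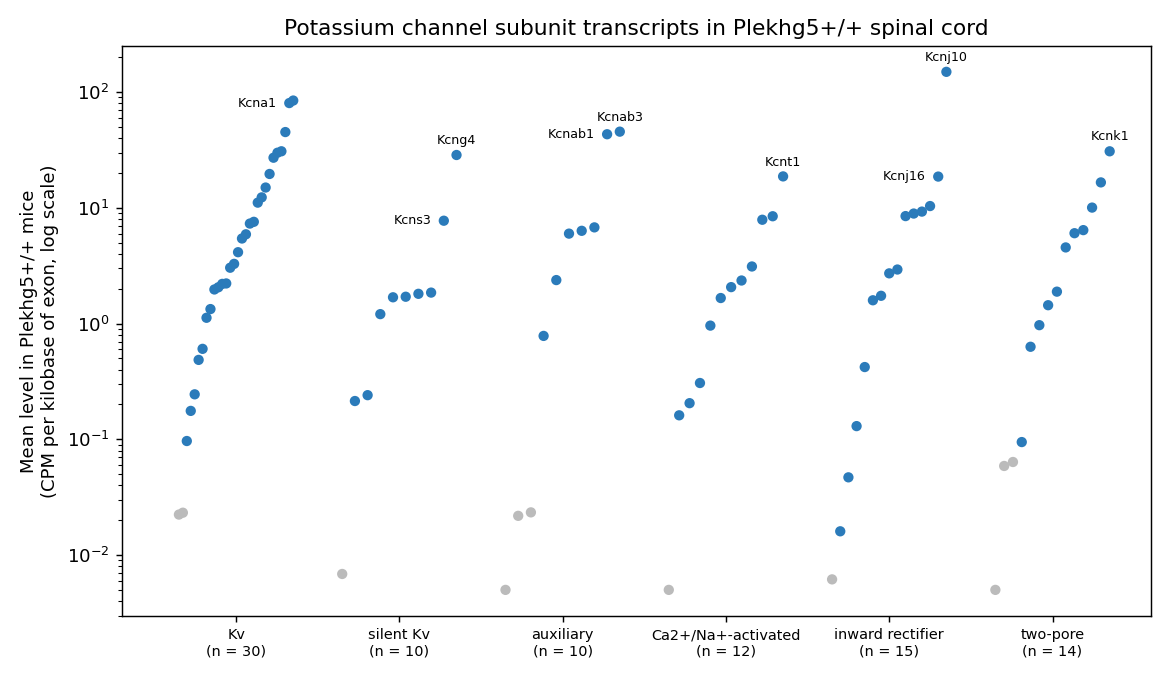
Mean level of each of the 91 subunits in the 3 Plekhg5+/+ mice (CPM per kilobase of exon, log scale), sorted within its class, with subunits that passed the filter on low counts in blue and the other 11 in grey. Values below 0.005, among them the 3 subunits without a count, are drawn at 0.005. Kcnj10 stands highest, and the Kv class has the most subunits at 10 or above.

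Several subunits lie side by side in the genome (GRCm38.p6) and differ widely in level. On chromosome 3, Kcna2 (from 107090883 to 107115005) had 45.2 CPM per kilobase, and its neighbours Kcna3 (from 107036162 to 107038129) and Kcna10 (from 107183143 to 107195721) had 2.06 and 0.0224. On chromosome 6, Kcna1 (from 126636463 to 126645801) had 80.5 CPM per kilobase, Kcna6 (from 126708328 to 126740834) 19.6 and Kcna5 (from 126532551 to 126535555) 1.97. Kcnj10 (chromosome 1 from 172341210 to 172374085) had 149.8 CPM per kilobase and Kcnj9 (from 172320508 to 172329322), a subunit of G-protein-gated channels, 9.29. For 15 subunits, 6 or more libraries held fractional counts, from reads shared with other places or with overlapping genes. Kcna1, Kcna2, Kcna5, Kcna6, Kcnj6, Kcnj10, Kcnj14 and Kcnma1 are among them, so that the levels of these genes are less certain.

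With Plekhg5 intact, the SOD1-G93A transgene changed few potassium channel subunits. Kcnk6, Kcns1 and Kcnip3 rose and Kcns3 fell, while the abundant Kcnj10, Kcna1 and Kcna2 did not pass the test. The 4 changed subunits of 80 tested compare with 2.47% called among all genes tested (2.09% higher and 0.377% lower). Their adjusted p-values lay close under 0.05. Without the first or the second Plekhg5+/+ library, or without the first Plekhg5+/+ SOD1-G93A library, 0 subunits were called, and 1 was called without the third Plekhg5+/+ library, without the second or the third Plekhg5-/- library, or without any of the Plekhg5-/- SOD1-G93A libraries. A fit of the 2 genotypes alone called 0 subunits.

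Kcnk6 (chromosome 7 from 29221928 to 29232522, minus strand) encodes TWIK-2, a two-pore channel through which macrophages release potassium when the NLRP3 inflammasome is activated. It had 4.03, 4.03 and 3.83 CPM in the Plekhg5+/+ mice and 9.04, 6.34 and 5.91 CPM in the Plekhg5+/+ SOD1-G93A mice. All 3 transgenic values were above all 3 controls, and the first was the highest. The log2 fold change was 0.84 ± 0.177 (SE, edgeR adjusted p = 0.0300), a 1.79-fold increase. Without the first Plekhg5+/+ SOD1-G93A library it was 0.63, with an adjusted p of 0.107 in edgeR. In Plekhg5-/- mice Kcnk6 had 4.62, 4.64 and 3.50 CPM and in Plekhg5-/- SOD1-G93A mice 5.74, 5.53 and 4.27 CPM, where the groups overlapped and the log2 fold change was 0.28 (95% interval -0.10 to 0.66).

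Kcns1 (chromosome 2 from 164163619 to 164171113, minus strand) encodes the silent subunit Kv9.1. Its level was 5.83, 5.0 and 4.87 CPM in Plekhg5+/+ and 12.5, 8.65 and 6.69 CPM in Plekhg5+/+ SOD1-G93A mice, again without overlap and with the first transgenic mouse highest. The transgene raised it by a log2 fold change of 0.82 ± 0.197 (SE, edgeR adjusted p = 0.0492), which became 0.55 (adjusted p = 0.181) without that mouse. In the Plekhg5-/- mice Kcns1 had 5.06, 4.97 and 4.04 CPM, and with the transgene 4.84, 6.04 and 6.32 CPM, a log2 difference of 0.29 (95% interval -0.15 to 0.73). The 2 groups without Plekhg5 overlapped.

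Kcns3 (chromosome 12 from 11090202 to 11151168, minus strand) encodes Kv9.3, a silent subunit of the same subfamily, and moved the other way. It had 31.5, 28.2 and 28.7 CPM in Plekhg5+/+ and 22.7, 25.7 and 22.8 CPM in Plekhg5+/+ SOD1-G93A mice, all below the controls. Its log2 fold change was -0.31 ± 0.0741 (SE, edgeR adjusted p = 0.0479). The Plekhg5-/- mice, with 26.8, 25.8 and 24.7 CPM, were also below the Plekhg5+/+ mice (log2 difference -0.19, edgeR adjusted p = 0.929), and the Plekhg5-/- SOD1-G93A mice had 25.8, 23.3 and 24.5 CPM. The Plekhg5+/+ group thus stood apart from the other 3, which overlapped with each other. For Kcns3, 6 of 12 libraries held fractional counts.

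Kcnip3 (chromosome 2 from 127456498 to 127522094, minus strand) encodes KChIP3, also known as DREAM or calsenilin, a calcium-binding auxiliary subunit of Kv4 channels that also acts as a transcriptional repressor. Levels were 56.0, 58.1 and 66.6 CPM in Plekhg5+/+ and 73.7, 78.8 and 72.1 CPM in Plekhg5+/+ SOD1-G93A mice. The groups did not overlap, and the rise was small, with a log2 fold change of 0.31 ± 0.0729 (SE, edgeR adjusted p = 0.0442). In Plekhg5-/- mice Kcnip3 had 74.0, 66.8 and 66 CPM, and in Plekhg5-/- SOD1-G93A mice 66.3, 69.3 and 69.6 CPM, a log2 difference of -0.01 (95% interval -0.17 to 0.15). Among the other Kv4 partners, Kcnip1 and the Kv4.2 subunit Kcnd2 had log2 fold changes of -0.08 and 0.01 with the transgene in Plekhg5+/+ mice and did not pass the test.

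**Figure D2:**
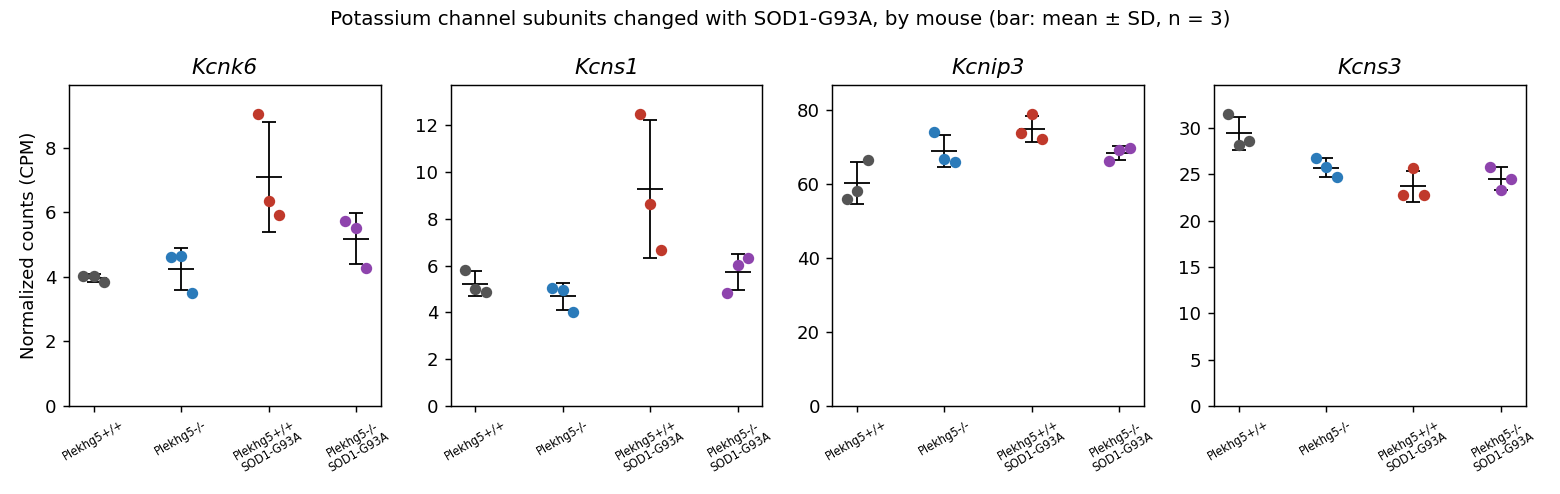
Normalized counts (CPM) of the 4 subunits called with SOD1-G93A in mice with Plekhg5, 1 point per mouse, with the mean and SD of each genotype (n = 3). In Kcnk6 and Kcns1 the first Plekhg5+/+ SOD1-G93A mouse, at 9.04 and 12.5 CPM, stands above all others. Kcns3 is highest in the 3 Plekhg5+/+ mice.

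Since Kcns1 and Kcns3 belong to one subfamily and moved in opposite directions, their promoter windows are shown (RefSeq starts on GRCm38.p6, 250 bases before to 50 after the start, 5′ to 3′ on the gene's strand). RefSeq gave 1 window for Kcns1 and 2 for Kcns3, and none for Kcnk6. Capitals mark the GC box, GGGCGG on either strand (CCGCCC on the opposite one).
Kcns1, chr2:164171064-164171363, minus strand: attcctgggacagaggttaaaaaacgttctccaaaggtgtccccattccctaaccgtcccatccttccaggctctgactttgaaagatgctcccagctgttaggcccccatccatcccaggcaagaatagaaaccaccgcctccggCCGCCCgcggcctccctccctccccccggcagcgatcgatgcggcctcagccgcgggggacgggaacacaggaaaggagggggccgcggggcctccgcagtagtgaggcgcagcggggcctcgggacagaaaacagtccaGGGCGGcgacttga
Kcns3, first window, chr12:11150793-11151092, minus strand: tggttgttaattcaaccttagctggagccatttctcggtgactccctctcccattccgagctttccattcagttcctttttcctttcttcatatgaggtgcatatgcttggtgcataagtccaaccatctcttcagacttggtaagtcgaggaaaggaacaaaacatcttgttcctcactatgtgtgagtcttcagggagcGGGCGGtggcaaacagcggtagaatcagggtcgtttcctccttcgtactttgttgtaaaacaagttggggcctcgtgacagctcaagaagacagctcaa
Kcns3, second window, chr12:11150324-11150623, minus strand: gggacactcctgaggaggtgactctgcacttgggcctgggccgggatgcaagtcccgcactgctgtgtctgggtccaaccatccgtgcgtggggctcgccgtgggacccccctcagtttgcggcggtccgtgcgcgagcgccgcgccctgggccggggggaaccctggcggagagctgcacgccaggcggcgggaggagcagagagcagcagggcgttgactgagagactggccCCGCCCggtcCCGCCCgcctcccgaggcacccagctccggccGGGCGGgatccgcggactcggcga
Each window holds at least 1 GC box, as do 35.7% of all 32851 promoter windows and 48.3% of the 89 windows of 66 subunits. Another 5 motifs, searched on both strands, have no match in these 3 windows. They are the TATA box with the letters TATAAA, held by 13.6% of all windows and 5.62% of those of subunits, the CCAAT box, held by 37.4% and 30.3%, the E-box with the letters CACGTG, held by 7.15% and 7.87%, the core of the CRE with the letters TGACG, held by 20.8% and 18.0%, and the ETS core with the letters GAGGAAG, held by 13.6% and 14.6%.

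Markers of microglia moved with the transgene too. With Plekhg5, 11 of the 12 microglial markers rose with SOD1-G93A, and their sum was 536 to 618 CPM in Plekhg5+/+, 1019 to 1906 in Plekhg5+/+ SOD1-G93A, 584 to 805 in Plekhg5-/- and 756 to 845 CPM in Plekhg5-/- SOD1-G93A mice. No marker of the list was at 0 in any library. The first Plekhg5+/+ SOD1-G93A mouse had the highest sum, as it had the highest Kcnk6, Kcns1 and Kcnj2. The part of microglia in the changes of these subunits was not tested. In bulk tissue, more cells of a type and more RNA per cell cannot be told apart.

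Other subunits came near the threshold without passing it. Kcnj14 (Kir2.4), an inward rectifier described in cranial motoneurons, had 25.3, 23.2 and 22.3 CPM in Plekhg5+/+ and 13.4, 20.2 and 16.0 CPM in Plekhg5+/+ SOD1-G93A mice, a log2 difference of -0.51 (edgeR adjusted p = 0.0890). Kcnk4 (TRAAK, a mechanosensitive leak channel of nodes of Ranvier) had 6.35, 6.45 and 5.91 against 3.79, 5.25 and 4.92 CPM, a log2 difference of -0.42 (edgeR adjusted p = 0.0918). For both genes the groups did not overlap, and DESeq2 called both, with adjusted p-values of 0.0226 and 0.0498. Kcnj2 (Kir2.1) had 15.7, 15.8 and 16.4 against 27.6, 18.5 and 18.3 CPM, a log2 difference of 0.43 (edgeR adjusted p = 0.118). Its first transgenic mouse stood apart from the other two. Motoneuron markers summed to 1615 to 1758 CPM in Plekhg5+/+ and to 1189 to 1551 CPM in Plekhg5+/+ SOD1-G93A mice, with 1 of 10, Chodl, called lower, and none at 0. Most of these sums was Nefh, with 1139, 1250 and 1161 against 802, 1057 and 789 CPM. Not all markers fell. Calca was higher in all 3 transgenic mice (34.8, 29.5 and 33.8 against 41.7, 42.0 and 42.4 CPM), and the groups of Ret overlapped. The part of motoneurons in the values of Kcnj14 was not tested.

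Across the 80 tested subunits, 28 had a positive and 52 a negative log2 difference between Plekhg5+/+ SOD1-G93A and Plekhg5+/+ mice, with a median of -0.09, against -0.00 over all genes tested, of which 49.7% were positive. At an unadjusted p under 0.05, 6 subunits were higher and 15 lower, together 26.2% of those tested, against 18.2% of all genes (10.6% higher and 7.51% lower). The groups did not overlap for 7 higher and 10 lower subunits, together 21.2% of those tested, near the 20.6% among all genes (11.6% higher and 9% lower). None of the 28 Kv subunits was called, and 21 of them had a negative difference (median -0.11). The lowest were Kcna2 at -0.29 (95% interval -0.71 to 0.14) and Kcna1 at -0.27 (-0.56 to 0.01), the Kv1 pair of the juxtaparanode, and their auxiliary subunit Kcnab1 had -0.23 (-0.39 to -0.06, edgeR adjusted p = 0.136). The silent subunit Kcng4 had -0.32 (-0.56 to -0.08, edgeR adjusted p = 0.148). Neuron markers had 11 of 12 negative differences and 0 calls, and summed to 9912 to 10085 CPM in Plekhg5+/+ and 8276 to 9482 CPM in Plekhg5+/+ SOD1-G93A mice.

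For glial and vascular channels the differences were mostly small. Kcnj10 had 935, 1130 and 1103 CPM in Plekhg5+/+ and 1082, 1084 and 994 CPM in Plekhg5+/+ SOD1-G93A mice, a log2 difference of -0.00 (95% interval -0.17 to 0.16). Its partner Kcnj16 (Kir5.1) had 0.13 (-0.03 to 0.29), although 2 of the 10 astrocyte markers, Gfap and Sox9, rose, with log2 fold changes of 1.23 and 0.81 (edgeR adjusted p = 0.0198 and 0.0206). Kcnj8 (Kir6.1), the pericyte subunit of ATP-sensitive channels, had 0.25 (-0.06 to 0.57). Among channels known from microglia, Kcnk13 (THIK-1) had 0.10 (-0.13 to 0.33), Kcna3 (Kv1.3) 0.13 (-0.28 to 0.54) and Kcnn4 (the intermediate-conductance calcium-activated channel) 0.82 (-0.16 to 1.80), the last at 0.347 to 1.43 CPM only. None of these passed the test. Of the 72 tested subunits with a mean of at least 1 CPM, 69 had an interval within 1 log2 unit of no change and 46 within 0.5.

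**Figure D3:**
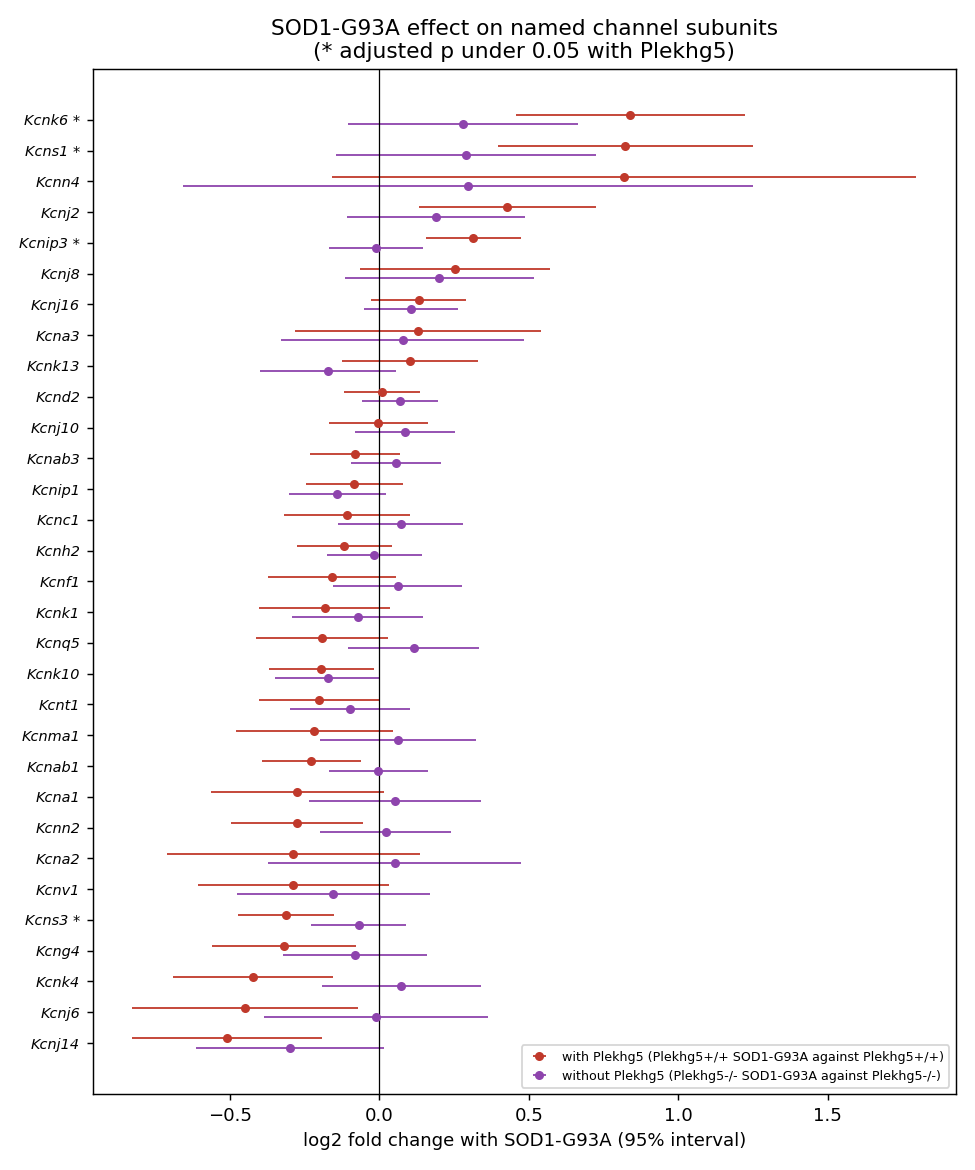
Log2 fold change with SOD1-G93A of 31 named subunits and its 95% interval, in mice with Plekhg5 (red) and without (purple), sorted by the value with Plekhg5. The asterisk marks the 4 subunits called with Plekhg5. Kcnk6 and Kcns1 have the largest values in red, at 0.84 and 0.82, and the interval of Kcnn4 is the widest.

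Without Plekhg5, the transgene changed none of the 80 subunits past the threshold, against 0.00496% of all genes, and at an unadjusted p under 0.05 there were 2 (2.5% of those tested, against 5.38% of all genes), Kcnj15 and Kcnh4, both higher and both under 1 CPM in most libraries. Kcnj15 passed the filter on low counts only through transgenic libraries, where it was high, so its p-value is no support for a change. DESeq2 called 0 as well. For 3 subunits, Kcnj14, Kcnk10 and Kcnmb1, the groups were apart in the same direction with and without Plekhg5, and for 0 subunits in opposite directions. Among all genes 2.59% were apart in the same direction and 0.724% in opposite ones. Kcnj14 had 24.6, 22 and 24.2 CPM in Plekhg5-/- and 21.6, 15.2 and 20.7 CPM in Plekhg5-/- SOD1-G93A mice, a log2 difference of -0.30 (95% interval -0.62 to 0.01). Kcnk10 (TREK-2) had -0.17 without Plekhg5 and -0.19 with it. Of the 80 subunits, 9 had groups that did not overlap, 4 higher and 5 lower (11.2%, against 12.5% of all genes, of which 7.25% were higher and 5.22% lower).

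The difference between the 2 effects of the transgene was tested as an interaction, and 0 subunits and 0 genes passed. At an unadjusted p under 0.05 there were 5 subunits, or 6.25% of those tested, against 9.05% of all genes, and DESeq2 called 0. They were Kcnip3 with an interaction of -0.33 ± 0.103 (SE, edgeR adjusted p = 0.407), Kcnk4 with 0.50 ± 0.174, Kcnk6 with -0.56 ± 0.250, Kcnj3 with 0.27 ± 0.120 and Kcns3 with 0.24 ± 0.105 on the log2 scale. The calls of Kcnk6, Kcns1, Kcnip3 and Kcns3 in mice with Plekhg5 are therefore not shown to differ from the effects in mice without it.

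Loss of Plekhg5 in SOD1-G93A mice changed 0 of the 80 subunits, against 0.0347% of all genes, with 8 at an unadjusted p under 0.05 (10% of those tested, against 8.64% of all genes) and 0 called by DESeq2. This comparison shares the Plekhg5+/+ SOD1-G93A libraries with the first, so that its values are set beside them only. Kcns1 had the lowest p, with a log2 difference of -0.69 ± 0.196 (SE, edgeR adjusted p = 0.402) from SOD1-G93A mice with Plekhg5 to those without. Kcnk6 had -0.46 ± 0.174 (edgeR adjusted p = 0.517), Kcnj2 -0.34 ± 0.136 and Kcnk13 -0.27 ± 0.106. All 3 mice without Plekhg5 were below all 3 with it for Kcns1, Kcnk6, Kcnk13 and Kcnip3. For Kcnk13 the values were 28.1, 32.6 and 33.0 CPM with Plekhg5 and 25.0, 26.0 and 26.8 CPM without.

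In the same comparison, 26 of the 28 Kv subunits had a positive difference, as did 47.5% of all genes, with a median of 0.10, among them Kcna1 with 0.27 (95% interval -0.02 to 0.56), Kcna2 with 0.26 (-0.16 to 0.69) and Kcnq5 with 0.25 (0.03 to 0.47). None passed the test. Of the neuron markers 12 of 12 and of the motoneuron markers 10 of 10 were positive too (median log2 difference 0.14 and 0.23, 0 called), with neuron sums of 8276 to 9482 CPM with Plekhg5 and 9141 to 9854 CPM without. Endothelial markers were positive for 10 of 10, Schwann cell markers for 6 of 6 and microglial markers for 0 of 12. Astrocyte markers were positive for 3 of 10 and oligodendrocyte markers for 1 of 10. The part of these cell types in the Kv values was not tested. The third Plekhg5+/+ SOD1-G93A library had the lowest value of its genotype for 20 of the 28. Of the other neuronal subunits, Kcnj3 (Kir3.1) and Kcnj6 (Kir3.2) of the G-protein-gated channels had 0.20 (0.02 to 0.39) and 0.33 (-0.05 to 0.70), and the groups did not overlap. Across all 80 subunits, groups were apart for 9 higher and 4 lower, or 16.2%, against 19.5% of all genes (9.48% higher and 10% lower).

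Loss of Plekhg5 without the transgene also changed 0 of the 80 subunits, against 0.0298% of all genes. At an unadjusted p under 0.05, 4 differed, Kcnip3 (log2 difference 0.19), Kcns3 (-0.19), Kcnv1 (-0.33) and Kcnf1 (-0.22), 5.0% of those tested against 5.32% of all genes, and DESeq2 called 0. The same Plekhg5+/+ libraries served the comparison that called Kcnip3 and Kcns3 with SOD1-G93A. The values of these genes here are therefore not independent of those calls. The groups did not overlap for 7 subunits (8.75%, against 8.71% of all genes). Kcns3, Kcnv1 and Kcnf1 are silent Kv subunits whose groups did not overlap, at 24.7 to 26.8 against 28.2 to 31.5 CPM for Kcns3, 2.62 to 3.04 against 3.33 to 4.01 CPM for Kcnv1 and 6.90 to 8.14 against 8.24 to 9.22 CPM for Kcnf1, with the Plekhg5-/- mice lower in each. Kcng4, the silent subunit of highest level, had -0.09 (95% interval -0.34 to 0.15). Of the 9 silent Kv subunits tested, 6 had a negative and 3 a positive difference, and their lowest adjusted p in edgeR was 0.929. In this comparison 71 of the 72 subunits with at least 1 CPM had an interval within 1 log2 unit of no change, and 61 within 0.5.

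Mice of one genotype also differed from each other. Among the abundant subunits, Kcna2 had 465, 761 and 719 CPM in the Plekhg5+/+ mice, 493, 645 and 711 in Plekhg5-/-, 549, 630 and 415 in Plekhg5+/+ SOD1-G93A and 628, 614 and 672 CPM in Plekhg5-/- SOD1-G93A mice. Kcna1 had 604, 780 and 782 CPM in Plekhg5+/+ and 604, 701 and 485 CPM in Plekhg5+/+ SOD1-G93A mice. The first Plekhg5+/+, the first Plekhg5-/- and the third Plekhg5+/+ SOD1-G93A mouse were lowest in their genotype for both genes. This held for 28 of the 80 subunits (35.0%), of which 17 were Kv subunits, 6 inward rectifiers, 3 calcium- or sodium-activated and 2 two-pore subunits, and for 17.1% of all genes. These 3 mice were singled out after their values were seen, so that no test is given. Other subunits were steadier, such as Kcnd2 with 74.1 to 83.7 CPM over all 12 mice.

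**Figure D4:**
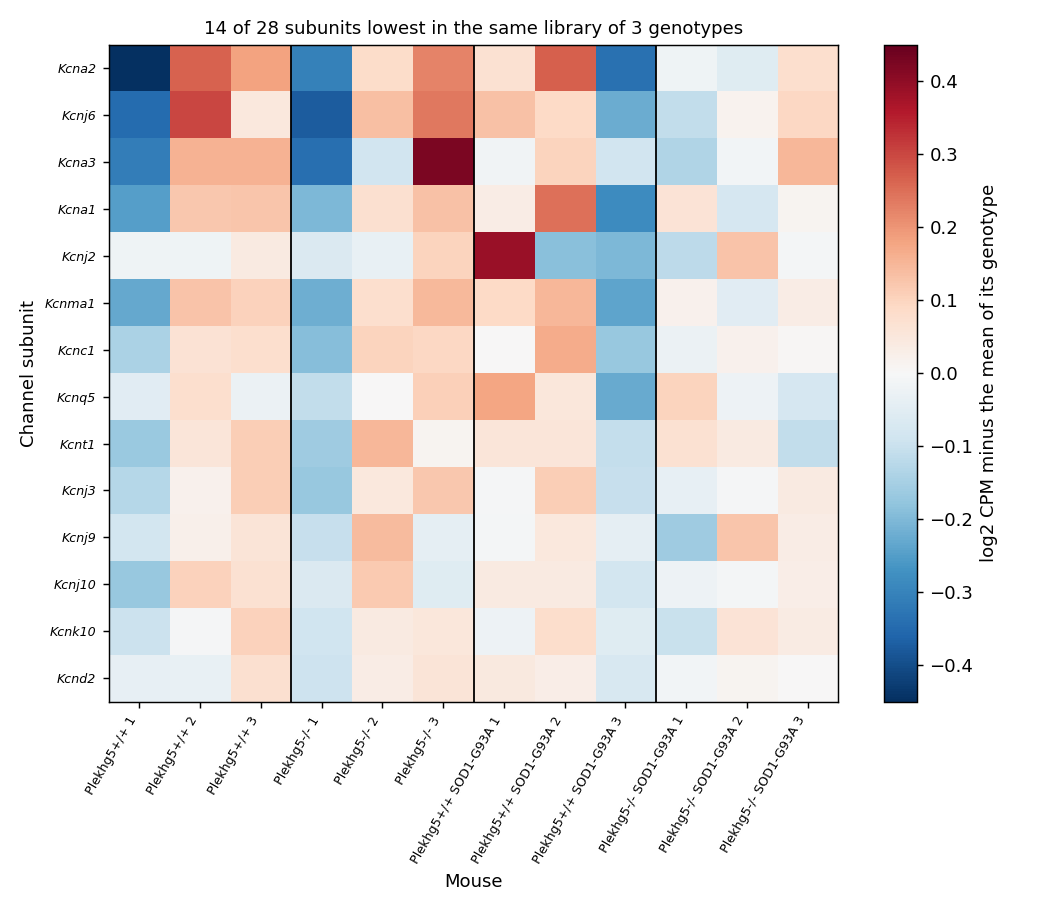
Log2 CPM of 14 named subunits, of the 28, in each of the 12 mice minus the mean of its genotype (blue lower, red higher), among the subunits lowest in the first Plekhg5+/+, the first Plekhg5-/- and the third Plekhg5+/+ SOD1-G93A mouse. Lines part the genotypes. In Kcna2 these 3 mice lie 0.45, 0.31 and 0.34 below their means.

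The same 3 mice had the lowest summed level of the 91 subunits in their genotypes, with 5837, 5813 and 5449 CPM against 6094 to 7183 CPM in the other mice of these genotypes. They also had the highest sums of the 10 oligodendrocyte markers, 28785, 32662 and 28677 CPM against 24269 to 26155 CPM in those mice. With the transgene in Plekhg5+/+ mice, 1 of the 10 markers, Opalin, rose. Opalin did not follow these sums. It was lowest of its genotype in the first Plekhg5+/+ mouse (24.4 CPM) and the third Plekhg5+/+ SOD1-G93A mouse (45.8 CPM). The part of oligodendrocyte RNA in the differences between the subunit sums was not tested. In Plekhg5-/- SOD1-G93A mice the subunits summed to 6464 to 6747 CPM.

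**Figure D5:**
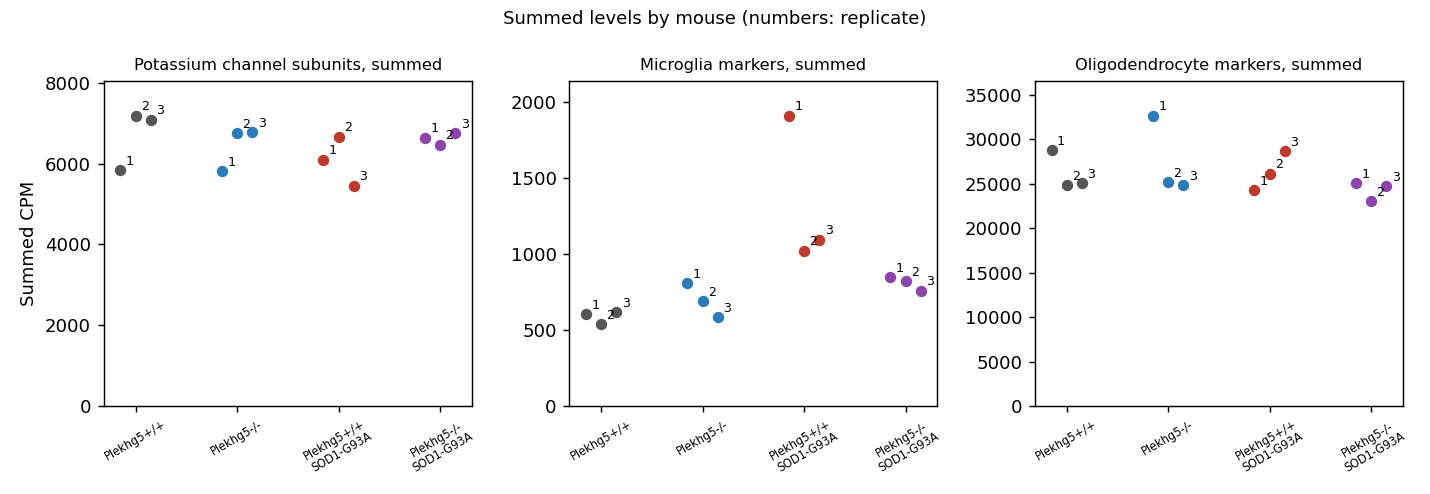
Summed CPM of the 91 subunits, the 12 microglial markers and the 10 oligodendrocyte markers in each mouse, with the replicate number beside each point. The subunits are lowest and the oligodendrocyte markers highest in the same mouse of 3 genotypes, and the microglial markers are highest, at 1906 CPM, in the first Plekhg5+/+ SOD1-G93A mouse.

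Of 37 genes that work with these channels, 36 were tested, and with Plekhg5 the transgene raised 2, Fxyd1 and Lgi4, and lowered none. This is 5.56% called, against 2.47% of all genes (2.09% higher). At an unadjusted p under 0.05 there were 11, or 30.6%, against 18.2% of all genes. Fxyd1, phospholemman, a regulator of the sodium-potassium pump, had 34.7, 31.4 and 28.5 CPM in Plekhg5+/+ and 61.4, 42.4 and 53.8 CPM in Plekhg5+/+ SOD1-G93A mice (log2 fold change 0.73 ± 0.155, SE, edgeR adjusted p = 0.0308). Lgi4, a secreted protein of the LGI family that peripheral myelination needs, had 53.2, 58.3 and 55.3 against 94.6, 76.9 and 68.6 CPM (0.53 ± 0.1, edgeR adjusted p = 0.0203). Of the 12 genes of the axonal Kv1 complex, the other 11 had negative differences (Cntn2 -0.14, Adam23 -0.28, Epb41l3 -0.19) and none passed. The pump subunit Atp1b1 had -0.16 (edgeR adjusted p = 0.134) and did not pass either. In the other 4 comparisons edgeR called 0 partner genes. At an unadjusted p under 0.05 there were 8 for Plekhg5 loss in SOD1-G93A mice (22.2%, against 8.64% of all genes) and 0 for the loss without the transgene (against 5.32%). There were 2 for the transgene without Plekhg5 (5.56%, against 5.38%) and 5 for the interaction (13.9%, against 9.05%).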

How the data were processed

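Total RNA of whole spinal cord was sequenced by the authors (poly-A selection, stranded, single-end reads of 75 nt). As the study's methods and processing notes say, reads were trimmed with Cutadapt 2.4 and mapped with STAR 2.7.2b to GRCm38.p6 plus the human SOD1 cDNA. They were counted on RefSeq exons by strand with featureCounts 1.6.4. Reads with several places, or that overlapped several genes, were shared as fractions. The deposited values are therefore expected counts per gene, without normalization. Near-identical or overlapping genes can share such reads, and 46 of the 91 subunits held a fractional count in some library.

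The counts were rounded and tested with edgeR 4.0.16 in R 4.3.3 (filterByExpr, TMM, robust quasi-likelihood fit of the 4 genotypes, which kept 20155 genes). P-values were adjusted by Benjamini-Hochberg over these genes, with a threshold of 0.05, and intervals are 95%, from the t distribution of the fit. CPM values used TMM library sizes. Between genes, levels were divided by exon length. Data were simulated for the effect of SOD1-G93A with Plekhg5, with 20155 genes of which 200 were changed. In these, edgeR called 159 of the changed and 8 other genes (48 of 80 at 1.5-fold, 71 of 80 at 2-fold and 40 of 40 at 4-fold). The changed genes were drawn only from genes above a minimum mean count, and each library was simulated independently. These rates therefore do not cover subunits of low counts or shifts shared by many genes of a library. DESeq2 1.42.0, other filters and scalings, covariates and fits without each library were the alternatives. Groups were taken from the genotype labels. The replicates are separate mice, and whether they shared litters is not given in the sources used here.

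The subunits, classes and lists were chosen with earlier results of these data known. Subunits are named if called in a comparison, if on a list of known roles, if among the 10 highest levels, or if among the 3 largest increases or decreases without overlap in a comparison. Some genes that meet this rule are not reported here. Genome neighbours and members of small counts outside this rule were named after their values were seen. Figures were drawn with matplotlib 3.10.9 in Python 3.11.15. Promoter windows come from RefSeq on GRCm38.p6.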

Additional observations from a re-analysis of the deposited data

How the results depend on the processing

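With Plekhg5 intact, the transgene changed 4 subunits, and this count moved with several settings. It was 0 in a fit of the 2 genotypes alone, 1 (Kcnk6) with an indicator of Y-linked transcripts, 2 (Kcns1 and Kcnk6) with the replicate number as a block, 3 without a filter or with a mean of at least 10 counts, 4 with DESeq2's size factors, and 6 with DESeq2, with or without its prior, or at an adjusted p under 0.1. Leaving out 1 library gave 0 to 5. The cause was not tested. Over 20 alternatives Kcnk6 was called in 15 (highest adjusted p 0.124), Kcnip3 in 8 (0.178), Kcns1 in 7 (0.185) and Kcns3 in 6 (0.188). The other 4 comparisons called 0 subunits under every alternative run, and without 1 library 0 to 0. Of 3861 log2 fold changes of named subunits under alternatives, 3767 stayed the same. Another 43 moved by more than their error and 7 gained significance. The 44 that lost significance all belong to the 4 called changes, each fitted under 20 alternatives. For these 4 together, the call was lost more often than kept. For changes called above, the same meant an unchanged direction and call, and 0 of these turned. For changes not called, the same meant only a shift smaller than the SE, and their direction was not checked. Whether mice of the same replicate number share a litter or preparation is not given. The deviations of same-numbered libraries correlated at -0.16 to 0.32, over 0.1 in 5 of 18 pairs. Other pairs of libraries from different genotypes correlated at -0.33 to 0.28, and 6 of 12 libraries correlated best with their own number. These ranges overlap and cannot decide whether the numbers mark a batch. The 3 mice per genotype and the levels of subunits under 1 CPM limit what could be detected.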

Other observations

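Kcnab2, the auxiliary Kv1 subunit left out because its gene lies near Plekhg5, was an abundant transcript with 447 to 567 CPM over the 12 mice. It passed no test, with log2 differences of -0.07 between Plekhg5-/- and Plekhg5+/+ mice, -0.14 with SOD1-G93A in Plekhg5+/+ mice and 0.10 from SOD1-G93A mice with Plekhg5 to those without (edgeR adjusted p = 0.997, 0.432 and 0.723). Kcnj15 (Kir4.2), at under 1 CPM in every library, had 0.234, 0.0603 and 0.126 CPM in Plekhg5-/- and 0.278, 0.880 and 0.518 CPM in Plekhg5-/- SOD1-G93A mice, the largest log2 difference of any subunit in the 5 comparisons, at 1.96 ± 0.563 (SE, edgeR adjusted p = 0.631). The groups did not overlap, and the difference did not pass the test. Kcnj15 passed the filter on low counts only through transgenic libraries, with 11, 29 and 20 counts. Libraries without the transgene had at most 8. Its size and separation were thus partly set by the filter and are no support for a change.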
